A study of Mus musculus with 6 samples.

Results

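The genes described here encode ceruloplasmin, the 2 ferritin chains and the core proteins of cellular iron handling: Cp, Slc40a1, Fth1, Ftl1, Tfrc, Slc11a2, Hmox1, Aco1 and Ireb2. They are 9 of the 34981 genes in the deposited table, and all 9 were among the 12929 genes with enough counts to test. They were measured by RNA sequencing in B16F10 cells, a mouse melanoma line, seeded at 500 cells in 50 µl of Matrigel, a basement membrane extract, at 7 mg/ml. Spheroids received BMP2, a bone morphogenetic protein, at 100 ng/ml for 10 days (3 libraries), and the control spheroids, titled as untreated, received PBS for 10 days (3 libraries). The experiment was run 3 times, and each of the 3 batches gave 1 library of either kind, so that the libraries share a cell line and differ in batch and treatment. The genes were chosen on the differences between BMP2 and PBS seen in these same 6 libraries. Their fold changes, and the p values that the fit over all genes gave them, are therefore a description and not evidence for an effect on this set.

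Iron enters most cells bound to transferrin, through the transferrin receptor, or as the divalent ion through a proton-coupled transporter. It is stored inside ferritin, a hollow shell of heavy and light chains, and leaves through ferroportin, helped by copper-loaded ferroxidases such as ceruloplasmin, which oxidise the iron for binding to transferrin. Heme oxygenase frees iron from heme. The iron regulatory proteins sense cytosolic iron: when it is scarce they bind hairpins in messenger RNAs, which blocks translation where the hairpin lies in the 5′ UTR and protects the transcript where it lies in the 3′ UTR.

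The hairpins bound by these proteins are shown because they divide the genes by a feature that expression did not select. The annotated UTRs of GENCODE M21 transcripts (GRCm38) were searched on the transcribed strand for a C, 5 bases, the loop CAGTG plus 1 base, and 5 bases that all pair with the first 5, with G-U pairs allowed. Matches were present in the 5′ UTR of 28 of 20505 coding genes (0.137%) and in the 3′ UTR of 127 of 20850 (0.609%). Of the 9 genes, Fth1, Ftl1 and Slc40a1 held 1 match each in the 5′ UTR and Tfrc held 4 in the 3′ UTR. The other 5 genes held no match to this strict pattern in the transcripts searched. Hairpins with an unpaired base in the stem or another loop were not searched for, so these 5 genes may still carry one. Each window below is 30 bases, 5′ to 3′, with the loop in capitals.
Fth1, 5′ UTR, chr19:9982732-9982761, plus strand: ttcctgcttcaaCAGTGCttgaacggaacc
Ftl1, 5′ UTR, chr7:45459778-45459807, minus strand: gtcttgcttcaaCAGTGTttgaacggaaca
Slc40a1, 5′ UTR, chr1:45925464-45925493, minus strand: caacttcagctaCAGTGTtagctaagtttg
Tfrc, 3′ UTR, chr16:32631219-32631248, plus strand: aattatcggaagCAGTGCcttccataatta
Tfrc, 3′ UTR, chr16:32631598-32631627, plus strand: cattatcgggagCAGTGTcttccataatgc
Tfrc, 3′ UTR, chr16:32631663-32631692, plus strand: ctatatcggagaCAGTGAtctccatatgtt
Tfrc, 3′ UTR, chr16:32631710-32631739, plus strand: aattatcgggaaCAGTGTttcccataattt
The stem arms beside the loop were ttcaa and ttgaa in both ferritin chains. The windows of Slc40a1 and Tfrc had other arms around the same loop.

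Libraries held 27821911 to 36856498 estimated counts. The library PBS 1 stood apart, at -79.7 on a first principal component that held 50% of the variance, against -16.8 to 55.5 for the other libraries, and it had the lowest TMM scaling factor (0.872, against 0.975 to 1.09). Fold changes that move by over 1.5 times without PBS 1 are given with and without it. The summed level of 8 melanocyte lineage markers was 29140 to 39670 CPM (counts scaled to library size, with TMM factors) in BMP2 libraries and 23760 to 26836 CPM in PBS libraries. All 8 were higher with BMP2 in each batch, where 22.8% of all tested genes were. The part of this in the values below was not tested. Lists of 10 leukocyte and macrophage markers (3 to 6.06 and 4.44 to 5.89 CPM), 8 fibroblast markers (3.88 to 8.08 and 6.01 to 11.1), 7 hepatocyte markers (1.37 to 2.88 and 0.958 to 1.66) and 8 erythroid markers (2.77 to 3.3 and 1.72 to 4.05) had summed levels far below this in BMP2 and PBS libraries. The fibroblast sums overlap the lowest values of Cp and Slc40a1 below. In the leukocyte list, Cd68 was lower with BMP2 in each batch (mean 2.47 against 4.3 CPM) and Lyz2 was higher (1.98 against 0.627 CPM). Adgre1, C1qa, C1qb, Alb, Serpina1a, Fgb, Hbb-bs, Hbb-bt and Slc4a1 had no counts. Spheroid RNA cannot tell fewer cells that express a gene from less RNA per cell.

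Among the 9 genes, 3 had every BMP2 library below every PBS library: Cp, Fth1 and Ftl1. Over all tested genes, 5.72% lay wholly below and 6.42% wholly above. Another pair, Tfrc and Ireb2, was lower with BMP2 in each batch although the groups overlapped, which made 5 of 9 lower in all 3 batches and 0 of 9 higher in all 3. Over all tested genes these shares were 21.1% and 22.8%. Since the genes were chosen on this contrast, nothing is read from these counts. In the edgeR fit of treatment alone, 0 of the 9 had a Benjamini-Hochberg adjusted p under 0.05, where 0.0387% of all genes fell and 0.00773% rose. Without adjustment 2 of the 9 had p under 0.05 in that fit, where 5.38% of all genes had. The DESeq2 Wald test called 1 of the 9 lower (Cp), where it called 0.431% of the genes with an adjusted p lower. With batch as a block 1 of the 9 fell (Cp) and 0 rose, where 0.364% of all genes fell and 0.371% rose. The median log2 fold change of the 9 genes was -0.37, against 0.01 over all tested genes.

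**Figure D1:**
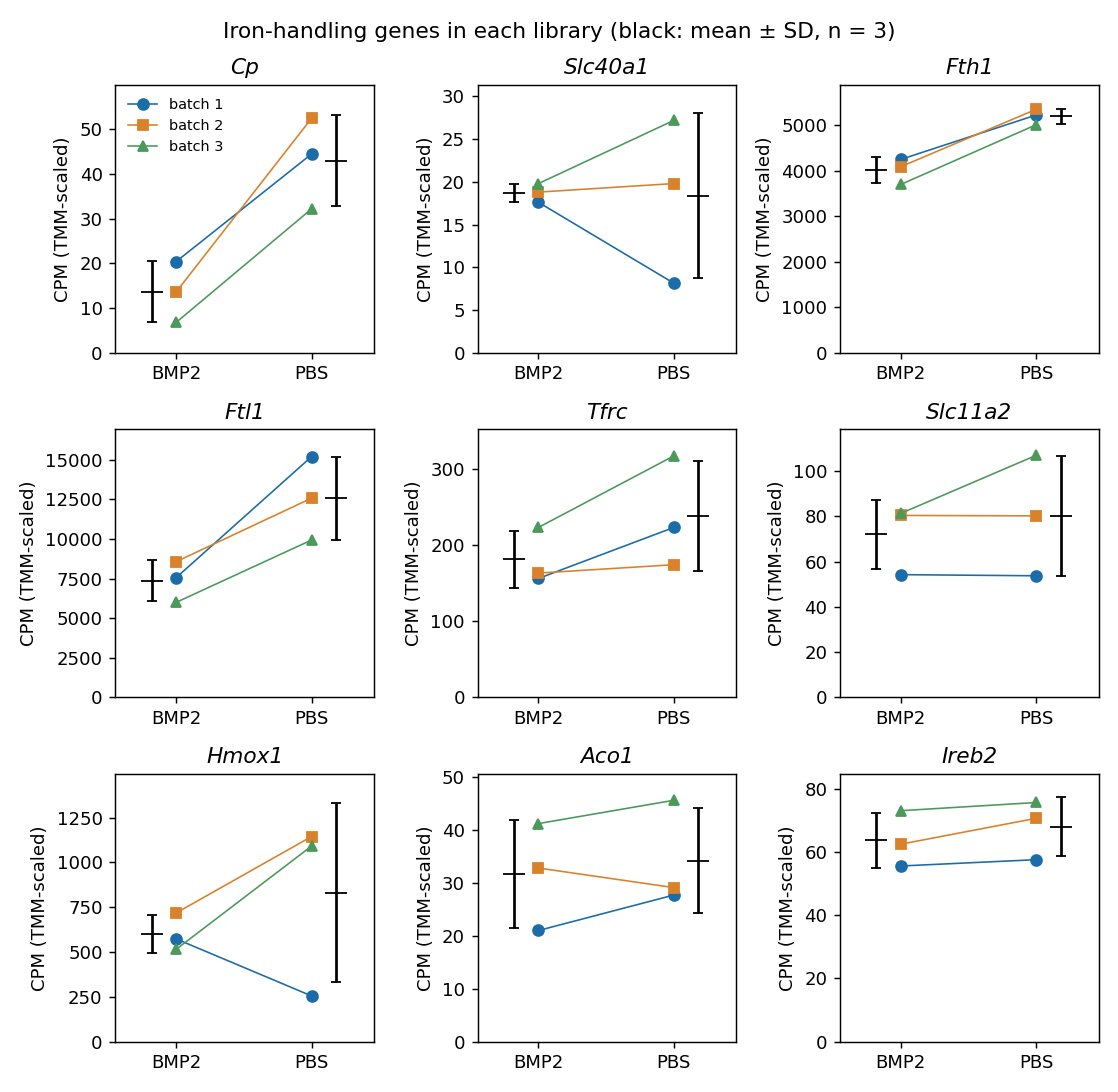
Level of each gene in TMM-scaled CPM (vertical axes from 0) in BMP2 and PBS libraries, with lines joining the libraries of a batch and black bars for the mean ± SD (n = 3 each). Cp, Fth1 and Ftl1 are lower in every BMP2 library than in any PBS library, while for Hmox1 and Slc40a1 the PBS library of batch 1 lies below its BMP2 partner.

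Per kb of transcript, which allows levels of different genes to be set side by side, the order of the mean level in BMP2 libraries was Ftl1 (7616 ± 1339 CPM per kb), Fth1 (4315 ± 305), Hmox1 (384 ± 66.7), Tfrc (37 ± 7.59), Slc11a2 (23.8 ± 5.08), Ireb2 (11 ± 1.53), Aco1 (8.27 ± 2.65), Slc40a1 (5.56 ± 0.326) and Cp (3.38 ± 1.7; SD, n = 3 each). In PBS libraries it was Ftl1 (12993 ± 2723 CPM per kb), Fth1 (5588 ± 185), Hmox1 (529 ± 318), Tfrc (48.6 ± 14.8), Slc11a2 (26.5 ± 8.78), Ireb2 (11.8 ± 1.62), Cp (10.7 ± 2.54), Aco1 (8.92 ± 2.59) and Slc40a1 (5.46 ± 2.86; SD, n = 3 each). Cp was thus the lowest of the 9 with BMP2, and stood above Aco1 and Slc40a1 with PBS. In BMP2 libraries the intervals of mean ± SD overlapped between Ireb2 and Aco1 and between Aco1 and Slc40a1, and in PBS libraries between Tfrc and Slc11a2 and between each neighbouring pair from Ireb2 to Slc40a1, so these steps of the order lie within the spread.

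Of the 2 export genes, Cp was lower with BMP2 and Slc40a1 showed no common direction. Cp encodes the secreted or membrane-anchored copper ferroxidase (ENSMUSG00000003617, GRCm38 chromosome 3, 19957054 to 20009145, plus strand). Its level was 20.4, 13.6 and 6.77 CPM in BMP2 libraries 1, 2 and 3, against 44.5, 52.5 and 32.2 CPM in PBS libraries 1, 2 and 3. The highest BMP2 library was thus below the lowest PBS library, and the lowest library of either kind was that of batch 3. The BMP2 mean of 13.6 ± 6.84 CPM was 31.6% of the PBS mean of 43.0 ± 10.2 CPM (SD, n = 3 each).

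The log2 fold change of Cp was -1.66 (SE 0.40; edgeR adjusted p 0.399), and -1.77 (SE 0.24; edgeR adjusted p 0.0363) with batch as a block. Within batches 1, 2 and 3 the log2 difference was -1.12, -1.94 and -2.24. Leaving out single libraries gave -1.34 to -2.08 without the block. Without batch 2 the blocked edgeR fit gave -1.67 at an adjusted p of 0.166, and without batch 1 or batch 3 it gave -2.10 and -1.53 at 0.00143 and 0.00147. Here and below, fits without a batch rest on fewer libraries and fewer residual degrees of freedom. In all, the adjusted p of Cp ran from 2.38e-10 to 0.989 over 18 alternative fits and was under 0.05 in 7 of them, all but 1 with the block.

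Cp shared 0.901% of the 31-base words of its annotated transcripts with other genes, mostly with Hps3, which encodes a subunit of a complex for lysosome-related organelles. The end of Hps3 overlaps that of Cp on the opposite strand, and since the strand setting of the counting is not known, reads in that stretch cannot be told apart. Hps3 was at 35.1, 45.3 and 47.1 CPM in BMP2 libraries and at 20.6, 23.7 and 32.6 CPM in PBS libraries. Its levels therefore went opposite to those of Cp, with no overlap between the groups.

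Slc40a1 encodes ferroportin, the cellular iron exporter (ENSMUSG00000025993, chromosome 1, 45908068 to 45926523, minus strand). It was at 17.6, 18.8 and 19.8 CPM in the BMP2 libraries and at 8.13, 19.8 and 27.2 CPM in the PBS libraries. The BMP2 values were close together and lay inside the range of the PBS values, whose lowest was PBS 1. The coefficient of variation was 5.85% in BMP2 and 52.4% in PBS libraries. The log2 fold change was 0.03 (SE 0.39; edgeR adjusted p 0.99), and -0.33 without PBS 1. Leaving out PBS 3 gave 0.43.

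Per length, the ratio of Cp to Slc40a1 was 0.97, 0.608 and 0.285 in BMP2 libraries and 4.57, 2.22 and 0.988 in PBS libraries. This ratio does not depend on library scaling, and it was lower with BMP2 in each batch, by -2.24, -1.87 and -1.79 on the log2 scale. The BMP2 value of batch 1 and the PBS value of batch 3 were nearly equal, so the groups were close to overlapping. The other membrane-bound copper ferroxidases that can stand in for ceruloplasmin, Heph and Hephl1, had 0 counts in all 6 libraries.

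The storage genes Fth1 and Ftl1 were the most abundant of the set and were lower with BMP2 in each batch. Together they took 1.24%, 1.25% and 1.05% of all counts in BMP2 libraries 1, 2 and 3, against 1.78%, 1.75% and 1.54% in PBS libraries 1, 2 and 3. Every BMP2 share was below every PBS share. Without TMM scaling the share of Fth1 alone was 0.446%, 0.405% and 0.402% with BMP2 and 0.455%, 0.521% and 0.518% with PBS, so that PBS 1 lay close to BMP2 1. By CPM averaged over libraries, Ftl1 ranked 4 and Fth1 18 among the 12929 tested genes.

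Fth1 encodes the heavy chain, which holds the ferroxidase site of the shell (ENSMUSG00000024661, chromosome 19, 9980598 to 9985098, plus strand). It was at 4245, 4085 and 3695 CPM with BMP2 and at 5221, 5346 and 5007 CPM with PBS. The groups did not overlap, and the PBS libraries varied least of all 9 genes, with a coefficient of variation of 3.3%. The BMP2 mean was 77.2% of the PBS mean. The log2 differences of batches 1, 2 and 3 were -0.30, -0.39 and -0.44, and the fitted value was -0.37 (SE 0.19; edgeR adjusted p 0.883, and 0.242 with the block). Under quantile normalization, which forces the same distribution on every library, it was -0.12.

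Ftl1 encodes the light chain, which promotes iron mineral formation in the core (ENSMUSG00000050708, chromosome 7, 45457944 to 45459884, minus strand). It was at 7557, 8566 and 5993 CPM with BMP2 and at 15210, 12583 and 9938 CPM with PBS. The groups did not overlap, and the highest value was that of PBS 1. The BMP2 mean was 58.6% of the PBS mean. The log2 differences of the batches were -1.01, -0.55 and -0.73, with a fitted value of -0.77 (SE 0.26; edgeR adjusted p 0.779, and 0.0901 with the block) and of -0.62 without PBS 1. Ftl1 passed in 2 of 18 alternative fits, the DESeq2 Wald test with the block (adjusted p 0.000208) and the blocked edgeR fit without batch 1 (-0.65 at 0.018).

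The level of Ftl1 is uncertain because 54.5% of its 31-base words occur in other genes, among which shared reads had to be divided. It shared such words with 17 genes, 15 of them pseudogenes. Ftl1-ps1, annotated as coding in GENCODE M21, shared 54.4% and was at 93, 60.6 and 43.4 CPM with BMP2 and at 80.7, 76.2 and 55.8 CPM with PBS. Ftl1 itself was assigned 97.8% to 99% of the counts of these genes together. The summed level was 7719, 8695 and 6126 CPM with BMP2, against 15365, 12729 and 10092 CPM with PBS, a log2 ratio of means of -0.76.

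Per length, light chain transcripts outnumbered heavy chain transcripts in every library. The ratio of Ftl1 to Fth1 was 1.71, 2.01 and 1.56 in BMP2 libraries and 2.80, 2.26 and 1.90 in PBS libraries. It was lower with BMP2 within each batch, by -0.71, -0.17 and -0.29 on the log2 scale, but the groups overlapped, since BMP2 2 lay above PBS 3. The batch with the largest difference was that of PBS 1.

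**Figure D2:**
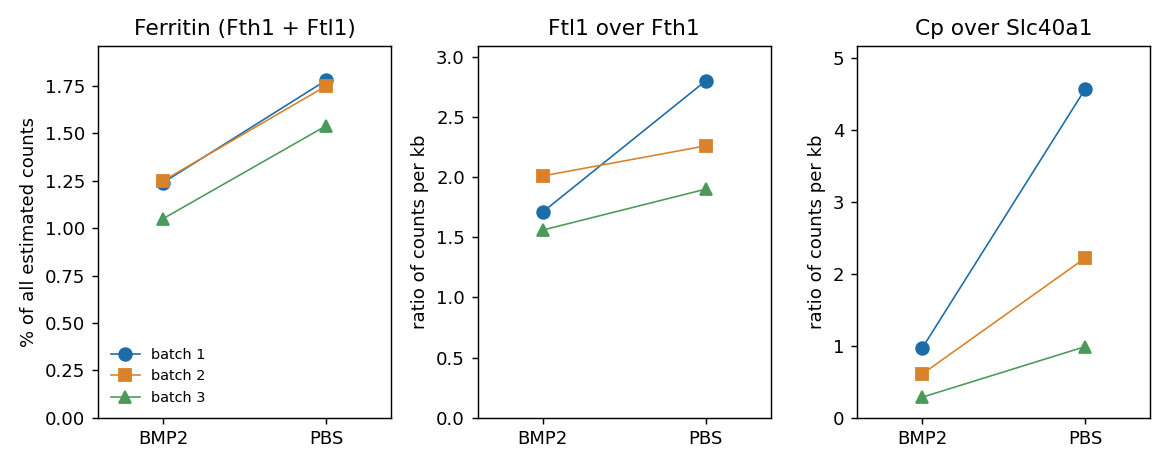
Share of all estimated counts at Fth1 and Ftl1 together (left, percent) and ratios of counts per kb of transcript for Ftl1 over Fth1 (middle) and Cp over Slc40a1 (right), with BMP2 and PBS libraries of a batch joined by a line. Every BMP2 library has a ferritin share of 1.05% to 1.25%, below the 1.54% to 1.78% of PBS libraries, and both ratios are lower with BMP2 in each batch.

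The groups overlapped for both uptake genes. Tfrc encodes the transferrin receptor (ENSMUSG00000022797, chromosome 16, 32608920 to 32632794, plus strand). It was at 156, 163 and 223 CPM with BMP2 and at 223, 174 and 317 CPM with PBS. Batch 3 had the highest level in either group. The log2 differences were -0.51, -0.10 and -0.50, with a fitted value of -0.39 (SE 0.27; edgeR adjusted p 0.883, and 0.277 with the block). It was -0.13 without PBS 3 and -0.58 without BMP2 replicate 3.

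Tfrc carries its hairpins in the 3′ UTR and the ferritin genes carry theirs in the 5′ UTR, where they act on translation, which RNA levels do not measure. The ferritin transcripts and Tfrc were lower with BMP2 in each batch. Any part of the hairpins in these levels was not tested. The ratio of Fth1 to Tfrc per length was 143, 132 and 87.0 in BMP2 libraries and 123, 162 and 83.3 in PBS libraries. It was higher with BMP2 in batches 1 and 3 and lower in batch 2, so the heavy chain and the receptor showed no common shift against each other. The ratio of Ftl1 to Tfrc was 244, 266 and 135 with BMP2 and 345, 366 and 159 with PBS, lower in each batch but with overlapping groups.

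Slc11a2 encodes the divalent metal transporter that moves iron out of the endosome (ENSMUSG00000023030, chromosome 15, 100387898 to 100425072, minus strand). It was at 54.2, 80.4 and 81.3 CPM with BMP2 and at 53.7, 80.2 and 107 CPM with PBS. The libraries of batches 1 and 2 were almost level between the groups, and only batch 3 differed, by -0.39 on the log2 scale. The fitted log2 fold change was -0.16 (SE 0.29; edgeR adjusted p 0.932), with -0.38 without PBS 1 and 0.11 without PBS 3. Of its 31-base words 5.74% occur elsewhere, in 718 genes. Most of these words lie in Gm5475, which shared 4.96% and was at 0.025 to 0.18 CPM over the libraries.

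The genes of both iron regulatory proteins had overlapping groups. Aco1 encodes iron regulatory protein 1, which is a cytosolic aconitase when it holds an iron-sulfur cluster (ENSMUSG00000028405, chromosome 4, 40143081 to 40198338, plus strand). It was at 21, 32.8 and 41.2 CPM with BMP2 and at 27.7, 29.1 and 45.6 CPM with PBS. Its log2 difference was -0.40, 0.17 and -0.15 in batches 1, 2 and 3, so the direction varied. The fitted value was -0.11 (SE 0.31; edgeR adjusted p 0.959), with -0.24 without PBS 1 and 0.16 without PBS 3.

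Ireb2 encodes iron regulatory protein 2, which is degraded when iron is plentiful (ENSMUSG00000032293, chromosome 9, 54863789 to 54912530, plus strand). It was at 55.6, 62.5 and 73.1 CPM with BMP2 and at 57.6, 70.7 and 75.7 CPM with PBS. The BMP2 library was slightly lower in each batch, by -0.05, -0.18 and -0.05 on the log2 scale, while the groups overlapped almost fully. The fitted value was -0.09 (SE 0.19; edgeR adjusted p 0.939), and -0.21 without PBS 1. Per length, the ratio of Ireb2 to Aco1 was 1.4 ± 0.313 in BMP2 and 1.36 ± 0.254 in PBS libraries (SD, n = 3 each).

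The batch means spanned more than the mean difference between the groups for 6 of the 9 genes. Over all tested genes the median span of the batch means was 0.56 on the log2 scale. The share of all genes with a span above their group difference was not counted, so nothing is read from the 6. For Slc40a1, Tfrc, Slc11a2, Hmox1, Aco1 and Ireb2 the batch means, taken over the BMP2 and PBS library of a batch, spanned 0.39 to 1.25 on the log2 scale, while the mean difference between the groups was between -0.37 and 0.19. For Slc40a1, Tfrc, Slc11a2, Aco1 and Ireb2 the highest batch was batch 3. The ferritin genes and Cp went the other way, with batch 1 highest and batch 3 lowest, over spans of 0.13 for Fth1, 0.47 for Ftl1 and 1.03 for Cp. For these 3 genes the mean difference between the groups, at -0.37, -0.76 and -1.77, was larger in size than the span of the batches. The genes were chosen on this contrast, so this order is a description only.

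**Figure D3:**
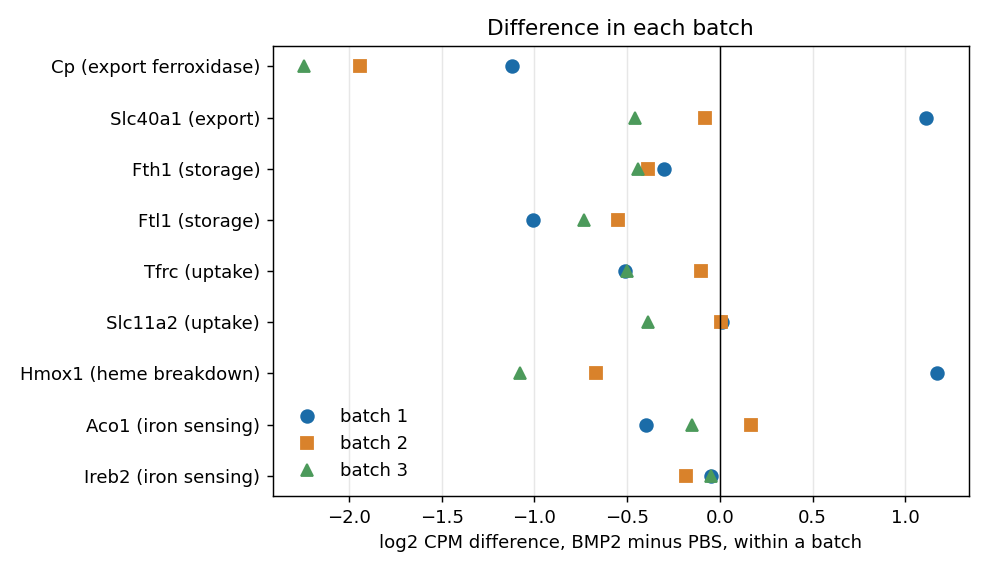
Log2 CPM difference (BMP2 minus PBS) within each of the 3 batches, for the 9 genes with their roles. Cp, Fth1, Ftl1, Tfrc and Ireb2 lie below 0 in all 3 batches, while Hmox1 and Slc40a1 lie above 0 in batch 1 and below 0 in batches 2 and 3.

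Hmox1, the stress-inducible heme oxygenase, differed in direction between batches (ENSMUSG00000005413, chromosome 8, 75093621 to 75100589, plus strand). It was at 573, 718 and 515 CPM with BMP2 and at 255, 1144 and 1091 CPM with PBS. The BMP2 libraries lay close together, between a low PBS 1 and a pair of high PBS libraries. The log2 differences were 1.17, -0.67 and -1.08 in batches 1, 2 and 3. The fitted value was -0.46 (SE 0.49; edgeR adjusted p 0.892), and -0.90 at 0.404 without PBS 1. Without batch 1, the blocked edgeR fit of the other batches gave -0.88 at an adjusted p of 0.018. The batch so left out was the one in which Hmox1 was higher with BMP2. That fit called 223 genes higher and 308 lower, against 48 and 47 with all batches. Without batch 2 or batch 3 the blocked fit of Hmox1 gave 0.05 and 0.25.

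Hmox1 is a classic target of NRF2, the transcription factor of the antioxidant response, and so are ferritin genes and Slc40a1, so a list of 12 NRF2 targets and regulators was read beside it. Of the 12, 6 were lower in BMP2 1 than in the other BMP2 libraries, where 38.3% of all tested genes were. The median log2 difference of the 12 from the mean of the other BMP2 libraries was -0.25, against 0.01 over all tested genes.

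In PBS 1, 10 of the 12 were at the lowest level of the 3 PBS libraries, where 42.7% of all tested genes were. The median log2 difference of the 12 from the mean of the other PBS libraries was -0.89, against 0.0046 over all tested genes. Srxn1, which encodes sulfiredoxin, was at 26.7 CPM in PBS 1 and at 114 and 144 CPM in PBS 2 and 3, and Gclm, a subunit of the glutathione synthesis enzyme, was at 45.3 against 144 and 124 CPM. Slc7a11, the cystine transporter, and Pgd, of the pentose phosphate pathway, were lower in PBS 1 by -2.69 and -2.14, Hmox1 by -2.13 and Slc40a1 by -1.51 on the same scale. Of the listed genes, Bach1 and Gclc were not lowest in PBS 1, at 0.81 and -0.08. Among BMP2 libraries, Srxn1, Gclm, Slc7a11 and Pgd were also lowest in BMP2 1, by -0.52, -0.58, -1.28 and -1.13. Gclc and Bach1 were higher in BMP2 1, by 0.56 and 0.25. The ferritin genes did not share the low level in PBS 1: Fth1 in PBS 1 was within the range of the other PBS libraries, and Ftl1 was at its highest there. The low level in PBS 1 was not particular to the NRF2 list. Of the melanocyte lineage markers, all but Dct were also at their lowest PBS level in PBS 1. Tyr was at 250 CPM in PBS 1 and at 604 and 976 CPM in PBS 2 and 3. Slc45a2 was at 90.4 against 399 and 526 CPM. Dct was highest in PBS 1, at 9671 against 7272 and 7963 CPM. What sets PBS 1 apart was not tested.

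**Figure D4:**
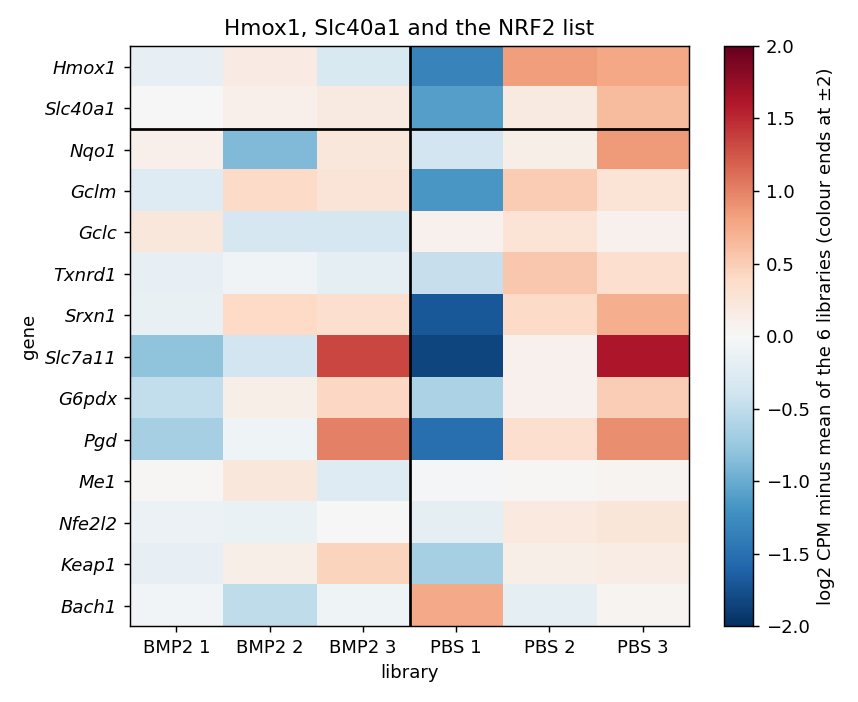
Log2 CPM of Hmox1, Slc40a1 and the 12 genes of the NRF2 list in each library, as the difference from the mean of the 6 libraries (blue lower, red higher). The column of PBS 1 is the lowest of the PBS columns for Hmox1, Slc40a1 and 10 of the 12 listed genes.

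Genes around the core set were counted in 8 lists of 99 genes in all, of which 97 were analysed here and 77 had enough counts to test. In the edgeR fit of treatment alone 0 rose and 0 fell, and with the block 0 rose and 0 fell. Unadjusted p was under 0.05 for 3 of the 77 without the block, where 5.38% of all genes had such a p, and for 10 of the 77 with it, where 17% had. These counts are no more than those shares give. The DESeq2 Wald test called 0 without the block. With it, it called Fech and Slc46a1 higher, where 2% of the genes with an adjusted p were, and Mt1 and Mt2 lower, where 2.96% were. In all 3 batches 11 of the 77 were lower and 14 higher with BMP2, where 21.1% and 22.8% of all tested genes were. The median log2 fold change of the 77 genes was -0.0039, against 0.01 over all genes. The related genes thus lay around 0 as a whole. Since Cp and the ferritin genes were chosen on this contrast, nothing is read from their lower levels beside these lists.

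Heme synthesis held the 3 genes of these lists with unadjusted p under 0.05 in the fit without the block, and all 3 were higher with BMP2. Fech, which encodes ferrochelatase, the enzyme that inserts iron into heme, was at 87.2, 105 and 111 CPM with BMP2 and at 52.2, 66.8 and 69.0 CPM with PBS. Its groups did not overlap and its log2 differences were 0.74, 0.65 and 0.68, yet it missed the threshold in both edgeR fits of the 6 libraries (log2 fold change 0.69, SE 0.19; edgeR adjusted p 0.614, and 0.0683 with the block). It did pass with the block in the DESeq2 Wald test (adjusted p 0.00145) and in edgeR without batch 1 (0.0247). Alad, for the step that makes porphobilinogen, was at 13.4 ± 1.47 CPM with BMP2 and 8.83 ± 1.45 CPM with PBS, and Uros, for uroporphyrinogen III synthase, at 5.51 ± 1.78 and 3.18 ± 0.55 CPM (SD, n = 3 each; edgeR adjusted p 0.182 and 0.22 with the block). The median of the 10 tested genes of the list was 0.12.

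Heme breakdown and transport (9 tested) had a median of -0.13. The lysosomal heme transporter gene Slc48a1 was at 663 ± 138 CPM with BMP2 and 838 ± 104 CPM with PBS, the biliverdin reductase gene Blvra at 42.9 ± 5.89 and 36.3 ± 3.56 CPM, and the exporter gene Abcg2 at 38.2 ± 5.36 and 32 ± 3.83 CPM (SD, n = 3 each). Slc46a1, which encodes a proton-coupled folate transporter that also carries heme and was named here after its values were seen, was at 4.76, 8.15 and 15.1 CPM with BMP2 and at 0.488, 6.15 and 7.96 CPM with PBS. Its log2 fold change was 0.94 (SE 0.82; edgeR adjusted p 0.883) and 0.40 without PBS 1, and it passed in the DESeq2 Wald test with the block (adjusted p 0.0334).

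Other genes of uptake and endosomal transport (9 tested) had a median of 0.07. The zinc and iron transporter gene Slc39a14 was at 75.2 ± 17.4 CPM with BMP2 and 55.6 ± 9.81 CPM with PBS, and Hfe, a partner of the transferrin receptor, at 32.4 ± 6.10 and 22.7 ± 8.88 CPM. Both were higher in each batch. The metalloreductase gene Steap2 was at 30.6 ± 8.48 and 40.8 ± 7.38 CPM (SD, n = 3 each). With the block the edgeR adjusted p of these 3 genes was 0.201 to 0.322.

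Ferritin partners (6 tested) had a median of -0.11. Pcbp1, a chaperone that delivers iron to ferritin, was at 314 ± 52.7 CPM with BMP2 and 401 ± 67.3 CPM with PBS, Pcbp4, of the same RNA-binding family, at 97.0 ± 15.5 and 112 ± 13.6, and Glrx3, a cytosolic glutaredoxin, at 195 ± 19.5 and 212 ± 62.1 (SD, n = 3 each). The cargo receptor for ferritin turnover, Ncoa4, was at 43.5, 69.0 and 69.3 CPM with BMP2 and at 51.4, 67.5 and 62.3 CPM with PBS, which overlapped. It was added to these after its values were seen.

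Of the systemic control genes, Trf and Neo1 alone had enough counts to test. Trf, which encodes transferrin, was at 241 ± 38.1 CPM with BMP2 and 291 ± 52.6 CPM with PBS and was lower in each batch (log2 fold change -0.27). Neo1, which encodes neogenin, was at 182 ± 59.2 and 165 ± 36.6 CPM (SD, n = 3 each). Hamp, which encodes hepcidin, the iron hormone that BMP signalling induces in hepatocytes, had 0 counts in all 6 libraries.

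Mitochondrial iron and iron-sulfur genes (18 tested) had a median of 0.02. Iscu, the scaffold of cluster assembly, was at 39.6 ± 4.65 CPM with BMP2 and 32.6 ± 1.83 CPM with PBS, and Mms19, of the cytosolic targeting complex, at 71.0 ± 8.10 CPM with BMP2 and 89.8 ± 21.2 CPM with PBS (SD, n = 3 each).

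Copper handling (11 tested) was read because ceruloplasmin is loaded with copper, and its median was -0.02. Mt1, a metallothionein, was at 584, 875 and 294 CPM with BMP2 and at 855, 1633 and 661 CPM with PBS. It was lower in each batch although the groups overlapped. Its log2 fold change was -0.84 (SE 0.46; edgeR adjusted p 0.883), -0.37 without PBS 2, and -0.87 with the block (SE 0.16; edgeR adjusted p 0.0798). With the block it passed in the DESeq2 Wald test (adjusted p 5.55e-05) and in edgeR without batch 1 (-1.04 at 0.007). Mt2, another metallothionein, passed in the same fits (adjusted p 0.0281 and 0.0187) and had a log2 fold change of -0.61 without the block (SE 0.52; edgeR adjusted p 0.883), and of -0.09 without PBS 2. Its level was 104 ± 58.1 CPM with BMP2 and 159 ± 84.6 CPM with PBS, and that of Atp7b, a copper pump that loads ceruloplasmin in the liver, was 7.19 ± 2.37 and 13.0 ± 8.72 CPM (SD, n = 3 each). For the NRF2 list the median was -0.09, and within batches 1, 2 and 3 it was 0.39, -0.33 and -0.26. Its genes with the smallest p were Gclc at 61.6 ± 14.6 and 74.1 ± 5.53 CPM, Txnrd1 at 258 ± 12 and 326 ± 108 CPM and the heme-binding repressor gene Bach1 at 16.6 ± 2.80 and 23.0 ± 8.10 CPM, in BMP2 and PBS libraries (SD, n = 3 each).

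Several of these related genes moved by over 1.5 times without PBS 1. Their log2 fold change with and without it was 0.52 and 0.28 for Hfe, -0.35 and -0.23 for Pcbp1, -0.21 and -0.13 for Pcbp4, -0.12 and 0.13 for Glrx3, and -0.27 and -0.13 for Trf. It was 0.14 and -0.04 for Neo1, 0.26 and 0.15 for Abcg2, -0.34 and -0.15 for Mms19, -0.47 and -0.15 for Bach1, -0.34 and -0.59 for Txnrd1, and -0.86 and -1.33 for Atp7b. None of these genes passed in the edgeR fits with all 6 libraries, and Txnrd1 passed in the blocked fit without batch 1 (-0.58 at an edgeR adjusted p of 0.0299).

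**Figure D5:**
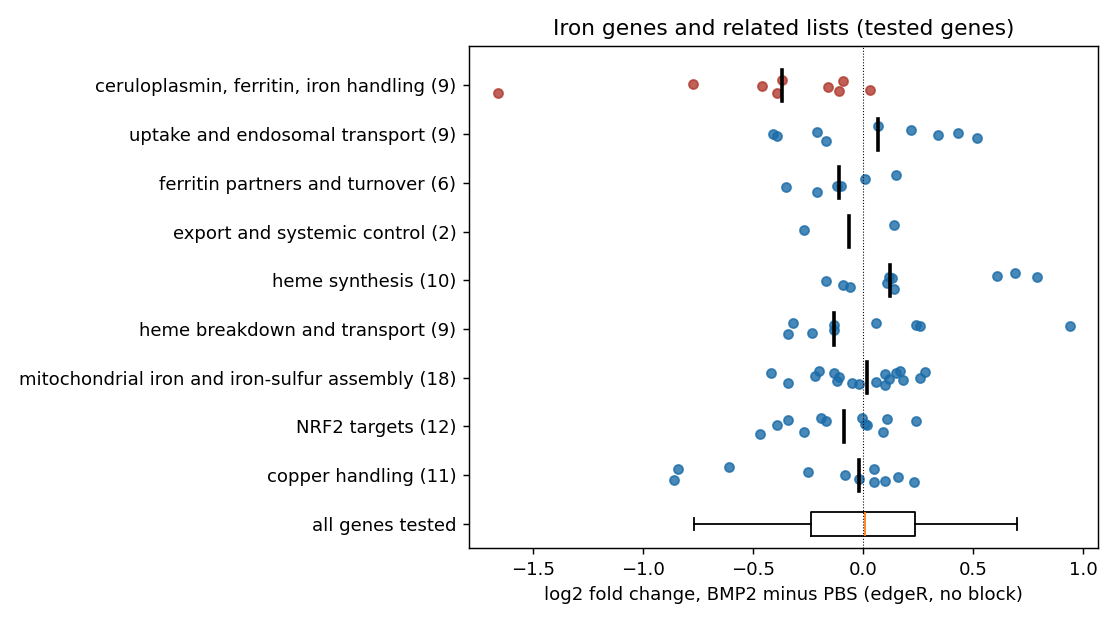
Log2 fold change (BMP2 minus PBS, edgeR without the block) of the 9 genes (red) and of the tested genes of 8 related lists (blue), with black bars for medians. The box holds the middle of all 12929 tested genes with whiskers at the outer percentiles (5 and 95). The 9 genes have a median of -0.37, and the related lists have medians between -0.13 and 0.12.

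The genes whose log2 CPM followed Cp most closely over the 6 libraries, by Pearson r, were Epha3 (0.99), Fnbp1 (0.988), Higd1a (0.987), Cbln3 (0.986) and Zfp467 (0.983). Epha3, an ephrin receptor gene, was at 155, 101 and 55.1 CPM with BMP2 and at 269, 266 and 228 CPM with PBS. Those closest to Fth1 were Nrtn (0.992), Nkap (0.991), Mef2b (0.99), Itpr3 (0.988) and Tnnt1 (0.987), and those closest to Ftl1 were Rab6a (0.992), Col4a2 (0.991), Rp9 (0.991), Maf1 (0.99) and Qars (0.989). Of these, Nrtn (0.0999 to 0.358 CPM) and Mef2b (0.325 to 0.534 CPM) rested on few counts. The 3 sets had no gene in common. With 6 libraries in 2 groups and 12929 genes to pick from, values this high describe the ranking and nothing more.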

How the data were processed

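The deposited table holds the authors' estimated counts for each Ensembl gene, made with kallisto 0.44.0 and build GRCm38.p6, per the submitters' processing notes. How transcripts were summed to genes, the annotation release and the strand setting: not given in the sources used here. GENCODE M21 held 34679 of the 34981 identifiers. Control columns were taken as the libraries whose titles say untreated, by replicate number. Counts were rounded, passed through edgeR's default filter and TMM scaling, and fitted on treatment by quasi-likelihood (edgeR 4.0.16, R 4.3.3). Benjamini-Hochberg adjustment ran over 12929 genes, with 0.05 as the threshold.

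Per the labels, libraries with the same number come from 1 batch. Within batches 1, 2 and 3 the residuals around each group mean had correlations of 0.51, 0.25 and 0.52. A second fit had batch as a block (2 residual degrees of freedom, against 4). The labels do not say whether libraries of a batch came from separate cultures, so p values measure the spread between these libraries. Batch differences use log2 CPM with a prior count of 2. Each SE was derived from the fitted fold change and its F value. Per-length levels use a principal transcript, and 31-base words were compared over all annotated transcripts. Alternatives used limma 3.58.1, DESeq2 1.42.0, other filters and scalings, summed near-identical genes, and omitted libraries or batches. The procedure was tested on simulated data.

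The genes and lists were chosen with earlier results of these data known. From each related list, genes past the threshold in either fit were named, and otherwise up to 3 with the smallest p. A gene that this rule names is not reported here. Slc7a11, Pgd, Srxn1, Gclm, Hps3, Ncoa4, Slc46a1, Ftl1-ps1 and Gm5475 were named after their values were seen. A level of 3 counts equals at most 0.103 CPM, which covers counting error only.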

Additional observations from a re-analysis of the deposited data

How the results depend on the processing

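Over 18 alternative fits, Cp, Fth1, Ftl1, Tfrc and Ireb2 stayed below 0. The cause of the changes below was not tested. Without the block, edgeR called 1 gene higher and 5 lower, and leaving out single libraries gave 0 to 5 higher and 2 to 5 lower. Higher and lower counts were 48 and 47 with the replicate block, 19 and 16 with no filter, 2 and 7 with quantile normalization in limma-trend, 66 and 66 by the DESeq2 Wald test, and 0 and 1 with near-identical genes summed. With the block, alternatives chosen after seeing the data gave 256 and 379 (DESeq2 Wald), 47 and 51 (DESeq2 size factors), 47 and 36 (genes summed), and 223 and 308, 9 and 18, and 115 and 103 without batch 1, 2 and 3. Of the 9 iron genes, 0 fell without the block or with any 1 library left out. With the block 1 fell, and likewise 1 by the DESeq2 Wald test, by DESeq2 size factors or summed genes with the block, and without batch 3. By the blocked DESeq2 Wald test 2 fell (Cp and Ftl1), where 2.96% of the genes with an adjusted p fell. Without batch 1, 3 fell (Cp, Ftl1 and Hmox1), where 308 of all genes fell, against 47 in the blocked edgeR fit of all libraries. Fits without a batch have fewer libraries and fewer residual degrees of freedom than that fit. Of the related genes, 2 were higher and 2 lower by the blocked DESeq2 Wald test, where 256 and 379 of all genes were. Without batch 1 the related genes gave 1 and 3, where 223 and 308 of all genes were called. Shares of all genes were not computed for fits with other scaling, summed genes or omitted batches, so nothing is read from their counts.

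Fitted log2 fold changes that turned sign were those of Slc40a1 (-0.33 to 0.43 over omitted libraries, -0.02 without BMP2 3, -0.28 without batch 1), Slc11a2 (-0.38 to 0.11; 0.01 without BMP2 1, and 0.01 without batch 3), Hmox1 (0.05 and 0.25 without batches 2 and 3), Aco1 (-0.35 to 0.16; 0.12 without BMP2 1, 0.003 without batch 1), Glrx3 (-0.28 to 0.13; 0.01 with quantile normalization, 0.05 without batch 1), Neo1 (-0.08 to 0.38; -0.04 without PBS 1) and Atp7b (0.04 without batch 3). Among the 9 genes, the block changed the call of Cp in edgeR and of Ftl1 in the DESeq2 Wald test.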
